A study of Homo sapiens with 4 samples.

Results

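The longest m7G peaks of HL60 and HL60/MX2 cells were examined, those of at least 500 bp from the first to the last base. In HL60 cells 333 of 8070 peaks (4.13%) were of this length, and in HL60/MX2 cells 262 of 8122 peaks (3.23%), which made 595 of 16192 peaks in all. They held 17.1% of all bases under peaks in HL60 and 13.0% in HL60/MX2. The peaks were chosen by their length in the lists and by nothing else, so their number and length are given as a description.

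HL60 is a human acute myeloid leukemia line, labelled as WT, and HL60/MX2 is its derivative labelled as drug-resistant cells, a line selected with mitoxantrone, an anthracenedione that poisons topoisomerase II. Both lines grew in RPMI-1640 medium with serum, and neither culture was labelled with a drug at harvest. From each line 1 m7G-enriched (IP) library gave 1 peak list, while the 2 input libraries were not analysed here. With 1 library per line no spread between libraries could be measured, so the lines were not tested against each other, and the 95% intervals (those of shares are exact Clopper-Pearson ones) cover counting error only. Read counts and expression values are not part of the lists. The depth of a peak is thus unknown, and the labelled cell type could not be checked against its marker genes.

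m7G is a guanosine that carries a methyl group at its N7 position. It forms the cap at the 5' end of mRNAs and also occurs inside tRNA, rRNA and mRNA, where METTL1 with its partner WDR4 is a known methyltransferase. Here the polyadenylated RNA was decapped and broken into short pieces before an antibody against m7G captured them. A peak is a stretch in which the captured pieces pile up over the input. Since exons are short in most of a human gene, a stretch as long as those described here can lie in 1 exon only where that exon is long, and such exons are mostly the last one, which holds the 3'UTR, or one of the few giant coding exons.

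A stretch of 120 bases from the middle of 7 of the coding peaks is shown, because the peaks that stood at the top of the lists by length or score differed in their sequence. Bases in capitals belong to a word of 12 nt that occurs more than once in the same peak, and all others are in lower case. All are from hg19, read 5' to 3' on the strand of the gene. MUC12 and IGFN1 were the longest peaks of HL60, and MUC16 was among the longest of HL60/MX2. POLR2A had repeated coding sequence, ZC3H13 and PPIG were rich in A and G at the highest score of HL60/MX2, and OPRPN carried long peaks of both lines.
MUC12, chr7:100642701-100642820, plus strand: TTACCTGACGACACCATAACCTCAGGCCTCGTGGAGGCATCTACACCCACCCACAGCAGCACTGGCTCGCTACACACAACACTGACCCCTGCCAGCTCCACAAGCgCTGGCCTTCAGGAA
IGFN1, chr1:201179418-201179537, plus strand: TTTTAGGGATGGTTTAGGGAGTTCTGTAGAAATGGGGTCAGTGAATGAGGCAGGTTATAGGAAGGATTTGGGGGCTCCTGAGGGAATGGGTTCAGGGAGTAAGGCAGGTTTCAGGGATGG
POLR2A, chr17:7416825-7416944, plus strand: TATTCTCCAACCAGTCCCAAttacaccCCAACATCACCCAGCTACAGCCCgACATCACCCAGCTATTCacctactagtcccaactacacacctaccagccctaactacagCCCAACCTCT
ZC3H13, chr13:46549636-46549755, minus strand: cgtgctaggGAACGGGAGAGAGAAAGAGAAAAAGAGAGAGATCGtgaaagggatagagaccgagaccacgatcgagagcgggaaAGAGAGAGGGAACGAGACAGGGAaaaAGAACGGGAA
PPIG, chr2:170493317-170493436, plus strand: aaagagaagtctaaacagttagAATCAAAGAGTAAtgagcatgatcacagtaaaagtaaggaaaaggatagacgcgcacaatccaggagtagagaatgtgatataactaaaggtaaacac
MUC16, chr19:9072777-9072896, minus strand: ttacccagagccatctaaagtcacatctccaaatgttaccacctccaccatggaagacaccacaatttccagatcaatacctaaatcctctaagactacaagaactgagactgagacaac
OPRPN, chr4:71275438-71275557, plus strand: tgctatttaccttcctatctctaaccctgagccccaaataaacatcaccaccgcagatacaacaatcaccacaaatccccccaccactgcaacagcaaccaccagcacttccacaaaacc
In MUC12 and IGFN1 nearly the whole stretch is made of such words. In ZC3H13 the stretch is mostly A and G, and in POLR2A it carries the coding sequence of the heptad repeats of the C-terminal domain. The stretches of MUC16 and OPRPN hold no repeated word.

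Many of the peaks were only a little longer than 500 bp. The median length was 630 bp in HL60 (quartiles 548 and 775 bp) and 618 bp in HL60/MX2 (559 and 741 bp), and 143 (42.9%) and 112 (42.7%) of them, respectively, were shorter than 600 bp. Peaks of at least 1000 bp numbered 22 in HL60 and 8 in HL60/MX2. Just inside the limit in HL60 were SYTL2, XPO4 and IL1RL1, each of 500 bp with scores of 181.58, 82.09 and 86.95, and just outside it were JMJD6 (499 bp, 325.09), DRGX (498 bp, 145.43) and ARHGAP28 (498 bp, 235.72). In HL60/MX2 the peaks just inside were an unassigned one on chromosome 13 (500 bp, 1191.13), XIRP2 (500 bp, 385.99) and NECTIN1 (501 bp, 64.55). Those just outside were RHBDD1 (499 bp, 63.55), ABCB8 (499 bp, 378.68) and MYLK (498 bp, 797.51). Of the peaks just inside, those of HL60 all scored below the median of the long peaks, while those of HL60/MX2 lay on both sides of it.

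The longest HL60 peak was in MUC12, a membrane-bound mucin, at chr7:100638957-100646564, with 7608 bp and the score 3100. It was followed by IGFN1, a muscle protein with immunoglobulin and fibronectin domains, at chr1:201177931-201181025, with 3095 bp and the score 3100. All other HL60 peaks were at most 1502 bp long. GRIK4, a kainate receptor subunit, had a peak of 1502 bp with a score of 1043.94 in the 3'UTR of its last exon of 3003 bp. ZNF518B, a zinc finger gene, had 1389 bp (977.05) and GJC1, the gap junction protein connexin 45, had 1341 bp (508.83), both in the 3'UTR. RP11-467N20.5 had 1362 bp in the CDS (736.94). P2RY14, a receptor for UDP-glucose, had 1329 bp (336.18) and DSE, an epimerase of dermatan sulfate synthesis, had 1299 bp (101.77), both mostly in the CDS of the last exon. SLITRK3, a neuronal membrane protein, had 1270 bp (249.83) and EGR3, a transcription factor of the early growth response family, had 1239 bp (306.09), both in the 3'UTR. Thus 5 of the 10 longest HL60 peaks were 3'UTR peaks and 5 were CDS peaks.

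The longest HL60/MX2 peak was in RPGR, a GTPase regulator of the cilium. It was 1561 bp long with the score 3100 and covered 55% of its exon of 2838 bp, which is exon 15 of 15. MUC16, the mucin that carries the CA125 antigen, followed with 1468 bp and a score of 2399.87 in an exon of 21693 bp. KCNN3, a small-conductance calcium-activated potassium channel, had 1216 bp (364.49) in the 3'UTR. CLUAP1, a protein of intraflagellar transport, had 1187 bp (290.47), PLEC, the cytolinker plectin, had 1150 bp (278.13), and POLR2A, the largest subunit of RNA polymerase II, had 1091 bp (1199.74). FAM72D had 1000 bp (1976.14) in the 5'UTR, and GOLGA6L4 had 995 bp (2314.12) over a whole coding exon. The other 2 of the 10 longest lay over no protein-coding exon, 1 on chromosome 8 with 1396 bp (2807.18) and 1 on chromosome 1 with 988 bp (329.61). FAM72D and GOLGA6L4 belong to families with near-identical copies, so reads of other copies could have been counted there.

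**Figure D1:**
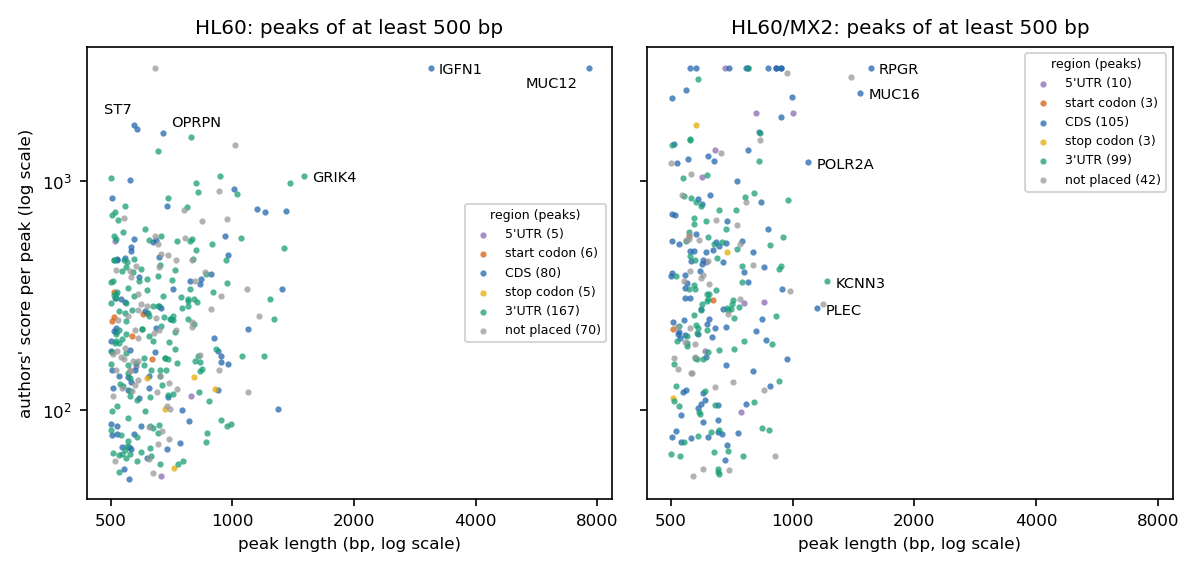
Length of each peak of at least 500 bp (x axis, bp, log scale) against its score (y axis, log scale) in HL60 (left, 333 peaks) and HL60/MX2 (right, 262 peaks), coloured by mRNA region. MUC12 (7608 bp) and IGFN1 (3095 bp) lie apart from all others in HL60. A row of 13 peaks stands at 3100 in HL60/MX2, the highest score of that list. In HL60 3 peaks stand there, but the highest score of that list is 3177.45, so these counts are not compared.

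MUC12 was the gene with the most long peaks, 3 in HL60 and 1 in HL60/MX2, all in its exon of 14935 bp that encodes the repeated mucin domain. Counted from the start of that exon, the HL60 peaks lay at 689 to 1265 bp (score 149.44), 5091 to 12699 bp (3100) and 13926 to 14935 bp (914.2). The HL60/MX2 peak of 776 bp lay at 2832 to 3608 bp (3100), where HL60 had none, and a shorter one of 349 bp lay at 14220 to 14569 bp (1525.28), inside the third HL60 peak. In the longest MUC12 peak 98.1% of the bases were in repeated words, and in the HL60/MX2 peak of 776 bp 29.6%. The placing of reads within both is thus uncertain, and so is the difference in their positions.

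**Figure D2:**
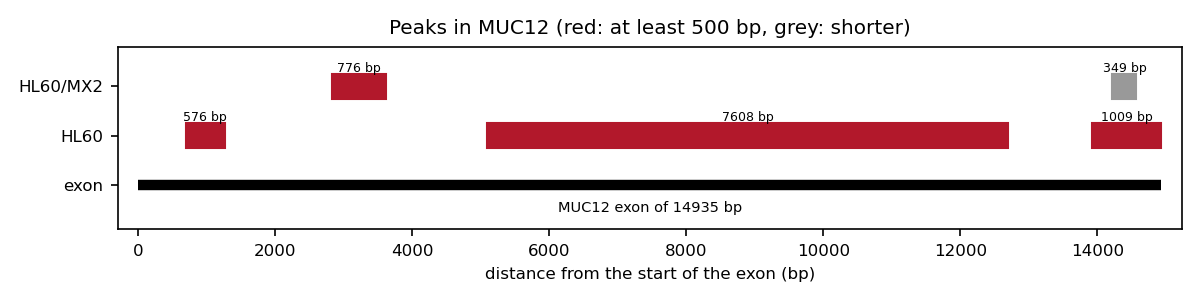
Positions of the 5 peaks of MUC12 along its exon of 14935 bp (x axis, distance from the exon start in bp) in HL60 and HL60/MX2, with peaks of at least 500 bp in red and the shorter one in grey. The HL60 peak of 7608 bp covers 50.9% of the exon, and the HL60/MX2 peak of 776 bp lies outside all HL60 peaks.

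The peaks sat inside long exons. With the strand taken into account, 309 peaks of HL60 and 247 of HL60/MX2 covered bases of protein-coding exons. In 96.1% and 96.0% of these every base was in exons of the gene, near the 96.5% and 95.2% of all shorter peaks. For shorter peaks over an exon of at least 500 bp the share was 96.5% and 96.8%. The median length of the exon below was 3491 bp in HL60 (quartiles 1865 and 5468 bp) and 2806 bp in HL60/MX2 (1380 and 4524 bp), of which the peak covered a median of 19.1% and 23.0%. Exons of at least 500 bp are common, since 18447 of 20162 protein-coding genes have one. In HL60 2678 shorter peaks, and in HL60/MX2 2670, also lay over such an exon, and these shorter peaks serve below as the comparison. Only the minimum exon length was matched, since the exons of the comparison peaks had medians of 2414 and 2248 bp.

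Of the long peaks that could be placed by exon, 238 of 302 (78.8%, 73.8 to 83.3%) in HL60 and 169 of 247 (68.4%, 62.2 to 74.2%) in HL60/MX2 were in the last exon. Internal exons held 35 and 41, first exons 11 and 24, and genes with a single exon 18 and 13. In the comparison peaks the last exon held 72.5% (70.7 to 74.2%) and 67.7% (65.9 to 69.5%). Neither end of the peak was at an exon end in 81.6% (76.8 to 85.7%) of the HL60 peaks and 74.1% (68.2 to 79.4%) of the HL60/MX2 peaks, against 69.6% and 68.4% of the comparison peaks and 27.3% and 27.1% of all shorter peaks. A whole exon was covered by 5 long peaks in HL60 (1.62%) and 14 in HL60/MX2 (5.67%), against 24.4% and 21.3% of all shorter peaks. The comparison peaks had 1.31% and 1.99%, but they cannot be read against the long peaks here. Each is shorter than the longest exon under it, so it could match only a shorter annotated exon. Those of HL60 were in GOLGA6L1, CATSPERG, ELMOD1, ZBTB38 and RP11-1212A22.4. Those of HL60/MX2 included HIRIP3, a histone chaperone, EIF5B, a translation initiation factor, TCOF1, the nucleolar protein treacle, OGA, the enzyme that removes O-GlcNAc, and the zinc finger genes ZC3H13 and ZC3H18. The genes named from this group were chosen after their values were seen.

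**Figure D3:**
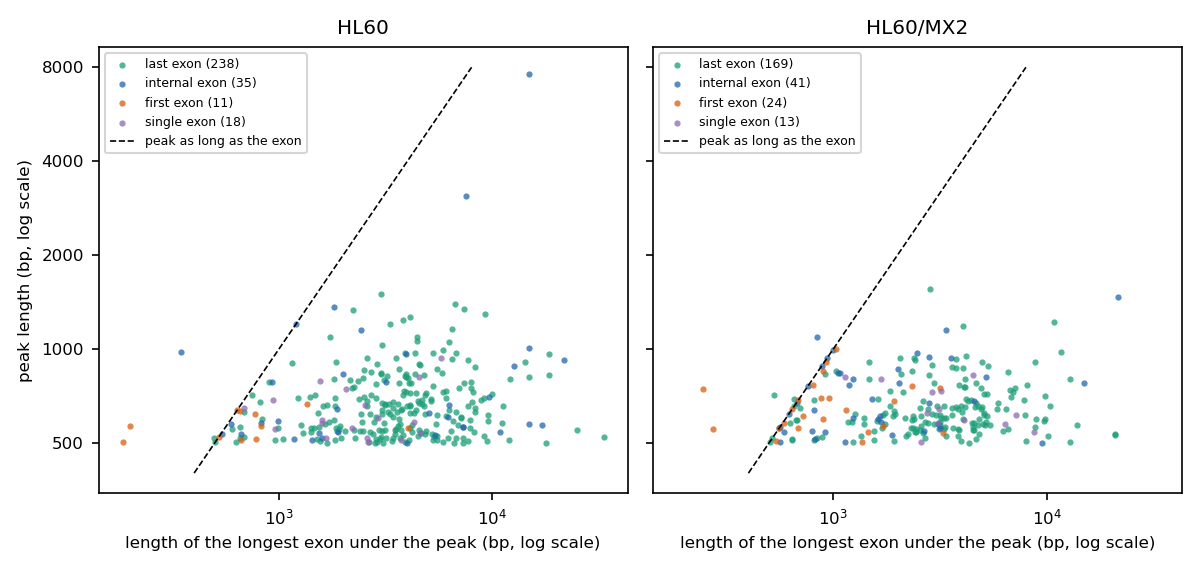
Length of the longest annotated exon under each peak (x axis, bp, log scale) against the length of the peak (y axis, bp, log scale), coloured by the place of the exon in the transcript, in HL60 (left, 302 peaks) and HL60/MX2 (right, 247 peaks). Most points lie far to the right of the dashed line on which peak and exon are equally long, as the medians of 19.1% and 23.0% of the exon covered show.

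By mRNA region, most long peaks of both lists were in the 3'UTR or the CDS. On the longest coding transcript 263 peaks of HL60 and 220 of HL60/MX2 could be placed. In HL60 167 of them (63.5%, 57.4 to 69.3%) had most of their overlap in the 3'UTR and 80 (30.4%, 24.9 to 36.4%) in the CDS. In HL60/MX2 99 (45%, 38.3 to 51.8%) were in the 3'UTR and 105 (47.7%, 41.0 to 54.5%) in the CDS. Each line is 1 library, so a difference between the lines was not tested. The comparison peaks were in the CDS in 32.1% (30.2 to 34.1%) of HL60 and 33.0% (31.1 to 35.1%) of HL60/MX2, and in the 3'UTR in 53.1% (51.0 to 55.2%) and 49.0% (46.9 to 51.1%). Against them, HL60 long peaks were more often in the 3'UTR by these intervals, and HL60/MX2 long peaks more often in the CDS. The intervals for the CDS in HL60 and the 3'UTR in HL60/MX2 overlapped. The separate codon classes limit this reading. They span 100 nt on either side of a codon, so they can seldom be the largest overlap of a long peak. The stop codon class held 8.08% and 8.23% of the comparison peaks, but 5 of 263 and 3 of 220 long peaks. The start codon class held 3.37% and 5.20%, but 6 of 263 and 3 of 220 long peaks. Whether both gaps remain without these classes was not tested. Of all shorter peaks of HL60, 65.2% were in the CDS and 19.4% in the 3'UTR.

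The same can be read from the other side, with the same limit from the codon classes. Of all CDS peaks over an exon of at least 500 bp, 9.84% (7.85 to 12.1%) in HL60 and 12.6% (10.4 to 15%) in HL60/MX2 were long. Of the 3'UTR peaks over such an exon, 12.4% (10.7 to 14.3%) in HL60 and 8.38% (6.86 to 10.1%) in HL60/MX2 were long. These intervals treat the peaks of 1 library as independent and do not test the lines against each other. When the coding transcript with the largest overlap was used instead, 71.9% of the HL60 and 51.8% of the HL60/MX2 long peaks were in the 3'UTR, and 23.2% and 39.7% in the CDS.

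The 5'UTR class had 5 long peaks in HL60 and 10 in HL60/MX2, with intervals of 0.620 to 4.38% and 2.20 to 8.20% of those placed, against 3.37% and 4.57% of the comparison peaks. The class within 100 nt of the start codon had 6 and 3, and that within 100 nt of the stop codon 5 and 3. The highest score of the 5'UTR class was 546.67 in HL60, in SYT3, a synaptotagmin. In HL60/MX2 TWNK, the helicase of mitochondrial DNA, had the score 3100 (679 bp), FAM72D and FAM72A had 1976.14 and 1970.15, OGA 1355.58 and LHX1, a homeobox factor, 1037.30. Around the stop codon, BEX1 and BEX3, small proteins encoded on chromosome X, had peaks of 578 and 689 bp with scores of 1738.50 and 488.05 in HL60/MX2. These genes were chosen after their values were seen.

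**Figure D4:**
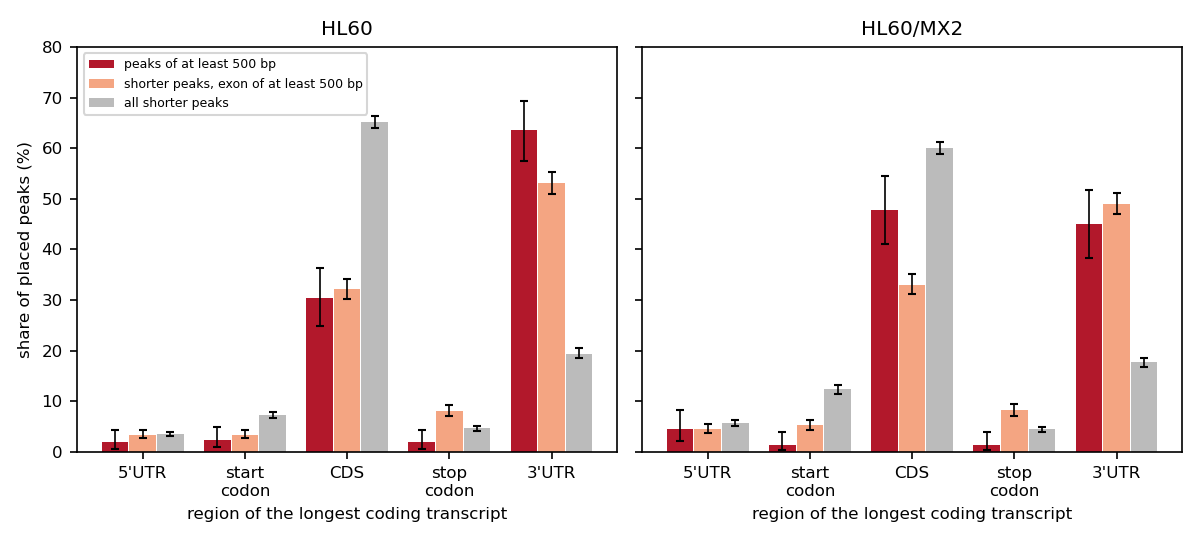
Share of peaks in each mRNA region (y axis, % of peaks placed on the longest coding transcript) for peaks of at least 500 bp, for shorter peaks over an exon of at least 500 bp and for all shorter peaks, with error bars for the exact 95% interval. For the long peaks of HL60 the 3'UTR bar is 63.5% and the CDS bar 30.4%, and for those of HL60/MX2 they are 45% and 47.7%.

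The score is the value the authors gave each peak, on a scale that is not stated, and it is compared only within a list. It started at 50 in HL60 and at 50.03 in HL60/MX2. The long peaks had a median score of 227 in HL60 (quartiles 128 and 399), against 189.8 (interval of the median 183 to 202) in the comparison peaks, and the interval of the long peaks was 199.6 to 254. In HL60/MX2 it was 337 (quartiles 170.3 and 669, interval 289 to 398) against 252 (239 to 267). The long peaks were at or above the median of their own list in 56.2% (50.6 to 61.6%) in HL60 and 60.3% (54.1 to 66.3%) in HL60/MX2. Scores of long CDS and 3'UTR peaks had medians of 224 and 239 in HL60 and of 395 and 289 in HL60/MX2.

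Several peaks shared exactly the score 3100. In HL60/MX2 it was held by 53 peaks of any length, 13 of them long, which is 4.96% (2.67 to 8.34%) of the long peaks. It was held by 0.225% (0.0825 to 0.488%) of the comparison peaks and 0.509% (0.364 to 0.692%) of all shorter peaks. In HL60 it was held by 8 peaks, 3 of them long, and the highest score of that list was 3177.45. No score of HL60/MX2 was above 3100, so the order among these 13 peaks is not known. The long ones of HL60/MX2 were in PRPF38B, a factor of pre-mRNA splicing, PPIG, a cyclophilin of nuclear speckles, PNISR, an SR-related protein, HNRNPU, an RNA-binding protein of the nuclear matrix, ZNHIT6, an assembly factor of box C/D snoRNPs, and ZC3H13, a subunit of the m6A methyltransferase complex. They were also in RPGR, MUC12, TWNK, ZSWIM9, ARHGAP30, a GTPase-activating protein, USP24, a deubiquitinase, and AEBP2, a cofactor of Polycomb repressive complex 2. Of these, only the peak of USP24 met an HL60 peak, over 78 bp. In HL60 the highest scores below MUC12, IGFN1 and an unassigned peak on chromosome 8 were in ST7 (1749.17), USP17L12 (1683.50), OPRPN (1608.18), ANKRD20A3 (1546.43), MUC2 (1424.11), ENSG00000284779 (1340.97) and FECH, the last enzyme of heme synthesis (1047.10). The MUC2 peak of 1013 bp had only 37 bp in an annotated exon, and USP17L12 and ANKRD20A3 are members of families of near-identical genes.

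The base composition of the long peaks followed the region they were in. The median GC content was 41.9% in HL60 and 46.2% in HL60/MX2, with 47.0% and 50.4% in CDS peaks and 39.2% and 42.2% in 3'UTR peaks. The comparison peaks had 47.7% and 50% in the CDS and 38.7% and 41.4% in the 3'UTR, and the intervals of these medians overlapped those of the long peaks. Purines (A and G on the strand of the gene) made a median of 50.3% (49.1 to 52.2%) of long CDS peaks in HL60 and 54.5% (52.3 to 57.0%) in HL60/MX2, against 52.1% (51.1 to 52.9%) and 52.3% (51.6 to 53.1%) in the comparison. At least 60% purines was found in 12 of 80 long CDS peaks of HL60 (15%, 8 to 24.7%) and 35 of 105 of HL60/MX2 (33.3%, 24.4 to 43.2%). In the comparison CDS peaks it was found in 15.1% (12.6 to 17.9%) and 19.8% (17.0 to 22.9%). The composition of a short window varies more than that of a long one.

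The purine-rich CDS peaks of HL60/MX2 had a median score of 490.0 (308 to 1886) over 35 peaks, against 339 (232 to 451) over the other 70, whose intervals overlap. In the 9 long CDS peaks at 3100 in that list other than those of MUC12 and USP24, the purine content ran from 61.4% in HNRNPU to 91.9% in RPGR, with 81.8% in ZC3H13, 75% in PPIG and 74.0% in PRPF38B, while MUC12 had 45.7% and USP24 54.8%. MDC1, a mediator of the DNA damage checkpoint, had 66.1% purines and a score of 2463.70, and ZEB1, a repressor of E-cadherin, 68.5% and 1236.08. In HL60 the 12 purine-rich CDS peaks had a median of 328 (113 to 730.1) against 224 (162 to 305) over 68, whose intervals overlap, and apart from IGFN1 (66.8%) the purine-rich ones had scores of at most 736.94. They were in RP11-467N20.5 (83.6%), GOLGA6L26 (83.4%), GOLGA6L1 (82.5%), TCHH, the hair follicle protein trichohyalin (77.4%), DSPP, the dentin sialophosphoprotein (67.4%), AHNAK2 (67.1%) and others. Over all long CDS peaks the Spearman rank correlation of purine content and score was -0.04 in HL60 (80 peaks) and 0.24 in HL60/MX2 (105 peaks).

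Repeats inside the peak were the other feature. More than 10% of the bases were in repeated words in 15 of 80 long CDS peaks of HL60 (18.8%, 10.9 to 29.0%) and 24 of 105 of HL60/MX2 (22.9%, 15.2 to 32.1%), against 5.73% and 4.65% of the comparison CDS peaks. In 3'UTR peaks the share was 3.59% and 7.07%, against 4.82% and 4.71%. A longer peak has more room for a word to recur, and its part in this gap was not tested. Among the CDS peaks of HL60, the highest values were in MUC12 (98.1%), GOLGA6L26 (90.2%), IGFN1 (89.8%), RP11-467N20.5 (89.6%), GOLGA6L1 (87.4%) and TCHH (83.2%). Among those of HL60/MX2 they were in PRB2, a salivary proline-rich protein (94.5%), ZNF737 (80.9%), MUC7, a salivary mucin (80.6%), GOLGA6L4 (71.8%), F5, the coagulation factor V (67.0%), and POLR2A (64.9%). Outside the CDS, the highest values were in MUC2 in HL60 (91.1%) and in the 3'UTR of PPP2R2D in HL60/MX2 (96.2%). Genes named here for their composition or repeats, other than those of the longest and highest scoring peaks, were chosen after their values were seen.

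**Figure D5:**
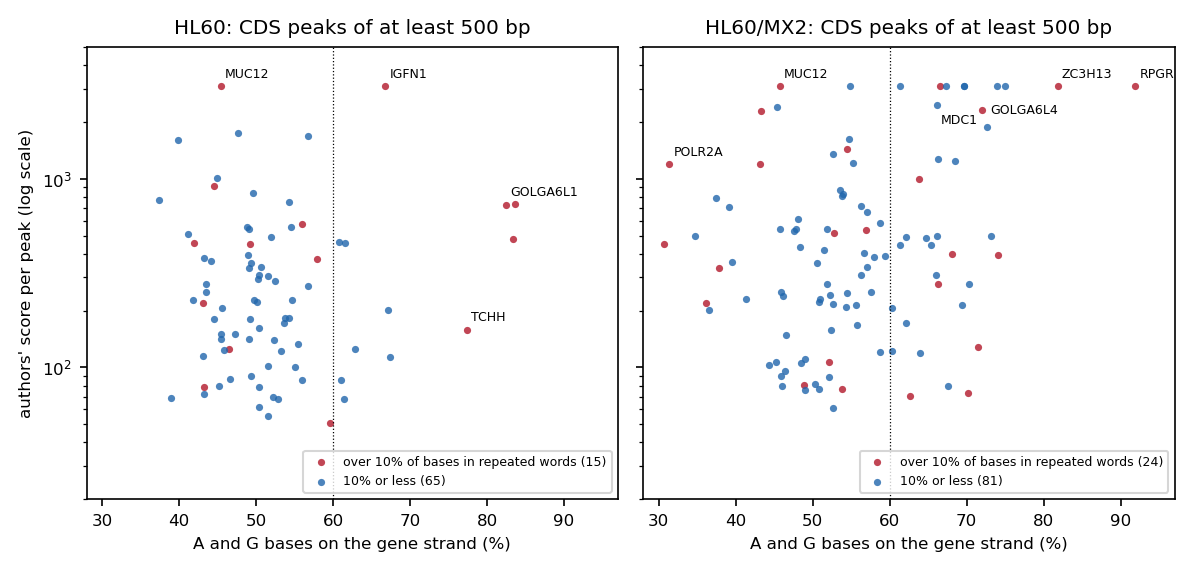
Share of A and G bases (x axis, %) against the score (y axis, log scale) for the long CDS peaks of HL60 (left, 80 peaks) and HL60/MX2 (right, 105 peaks), in red where more than 10% of the bases are in repeated words of 12 nt. To the right of the dotted line at 60% lie 12 peaks of HL60 and 35 of HL60/MX2, and most peaks at the score 3100 in HL60/MX2 lie there.

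Long peaks fell in 300 genes in HL60, 1.49% of the 20162 protein-coding genes, and in 245 genes in HL60/MX2, 1.22%. Most had 1 long peak. In HL60 8 genes had more. After MUC12, each of the other 7 had 2. GRIA4, an AMPA receptor subunit, had 795 and 703 bp, CTNNA3, an alpha-catenin, 761 and 728 bp, and SLC8A1, a sodium-calcium exchanger, 967 and 823 bp in a last exon of 18360 bp. RAPH1, the actin regulator lamellipodin, had 920 bp in the CDS and 657 bp in the same exon of 7732 bp. MUC16 had 922 and 704 bp, GAREM1, an adaptor of growth factor signalling, 969 bp in the 3'UTR and 514 bp in the CDS, and TEX15, a germ cell gene, 563 and 562 bp in 1 internal exon of 7313 bp. In HL60/MX2 CFLAR, the caspase-8 inhibitor c-FLIP, had 801 and 504 bp in its last exon of 12853 bp, with scores of 108.46 and 1422.83, and CCDC168 had 535 and 530 bp in an exon of 21022 bp.

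Gene families with long exons were counted as lists. Of 19 mucin genes, 6 (31.6%, 12.6 to 56.6%) had a long peak in HL60 and 3 (15.8%, 3.38 to 39.6%) in HL60/MX2, against 1.49% and 1.22% of all genes. They were MUC12, MUC16, MUC2, MUC4, MUC5B and MUCL3 in HL60 and MUC12, MUC16 and MUC7 in HL60/MX2. The MUC2 peak lay mostly outside annotated exons. A peak of any length was also frequent, in 13 and 10 of the 19 mucin genes against 26.5% and 28.6% of all genes. Of the mucin peaks, 9 of 34 in HL60 and 3 of 28 in HL60/MX2 were long, against 4.13% and 3.23% of all peaks. Of 611 zinc finger genes, most of which encode transcription factors with a long last exon, 12 (1.96%, 1.02 to 3.41%) and 8 (1.31%, 0.567 to 2.56%) had one, near the share of all genes. In HL60 these were ZBTB20, ZBTB21, ZBTB38, ZFP14, ZKSCAN4, ZNF10, ZNF135, ZNF221, ZNF320, ZNF518B and 2 more, and in HL60/MX2 ZNF737 had the highest score (1435.41) and ZSCAN29 the longest peak (928 bp). Of 415 olfactory receptor genes, 4 (OR2M7, OR2AG1, OR11H4, OR7C2) and 2 (OR2F1, OR2M3) had one, with lengths from 555 to 688 bp. These were 0.964% (0.263 to 2.45%) and 0.482% (0.0584 to 1.73%). Of 95 potassium channel genes, 4 (KCNK10, KCNQ3, KCNS1, KCNS2) and 3 (KCNN3, KCNN4, KCNJ1) had one, all those of HL60 in the 3'UTR. These were 4.21% (1.16 to 10.4%) and 3.16% (0.656 to 8.95%). Of 66 protocadherin genes, which carry their cell adhesion domains in 1 giant exon, PCDH7 and PCDHB7 had one in HL60 and PCDHB8 in HL60/MX2. These were 3.03% (0.369 to 10.5%) and 1.52% (0.0384 to 8.16%). For these lists each interval included the share of all genes in its line.

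None of the 94 keratin-associated genes had a long peak in either line, a count of 0 that allows a share of up to 3.85%. For the small lists that follow a count of 0 says little, since long peaks fell in only 1.49% and 1.22% of all genes, while a peak of any length fell in 26.5% and 28.6%. No long peak was in the 14 myeloid granule and surface genes, of which 2 had a peak of any length in HL60 and 5 in HL60/MX2, or in the 20 drivers of acute myeloid leukemia, of which 6 and 7 had one. The same held for the 6 mitoxantrone targets and efflux pumps, of which 1 and 2 had a shorter peak, and for the 6 m7G enzymes, of which 2 and 1 had one. A count of 0 allows a share of up to 23.2% for 14 genes, 16.8% for 20 and 45.9% for 6.

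Few long peaks recurred in the other line. Sharing required 1 bp or more in common with a same-strand peak of the other line, which held for 6.13% of the whole HL60 list and 6.09% of the whole HL60/MX2 list. Of the long peaks, 45 (13.5%, 10.0 to 17.7%) in HL60 and 30 (11.5%, 7.86 to 15.9%) in HL60/MX2 were shared. A longer peak has more bases to be met. Counted by base, 4.12% and 4.71% of the bases of long peaks were shared, against 4.43% and 4.45% of those of all shorter peaks, so by base the long peaks were shared about as often. The partner was mostly a shorter peak, with a median of 258 bp for HL60 and 312 bp for HL60/MX2. The overlap had a median of 203 and 246 bp. Of the genes with a long peak, 162 (54%) in HL60 and 102 (41.6%) in HL60/MX2 had a peak of any length in the other list, against 45.1% and 41.7% of all genes with a peak in the same list.

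In 7 places a long peak of one line overlapped a long peak of the other. In GRIA4 the HL60/MX2 peak of 602 bp (score 386.91) lay wholly inside the HL60 peak of 795 bp (229.89). In OPRPN, the precursor of the pain-relieving peptide opiorphin, the HL60/MX2 peak of 512 bp (708.7) lay inside that of HL60 with 675 bp (1608.18), in the CDS of the last exon of 816 bp. In NPIPB7, on the minus strand, the 2 ended at the same base, the 3' end of the last exon. They overlapped by 518 bp (450.15 in HL60 and 80.4 in HL60/MX2). RP11-1212A22.4 had the same 503 bp in both lists with scores of 78.49 and 2291.13, the only pair with equal ends. These ends were those of a whole exon. NPIPB7 and RP11-1212A22.4 lie in duplicated stretches of chromosome 16, where reads of near-identical copies cannot be told apart. An unassigned stretch on chromosome 13 was common over 519 bp. TCAF1, a partner of TRP channels, and ZNF135 overlapped by only 84 and 64 bp.

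Long peaks were found in both lines in 11 genes, the 6 just named, MUC12, MUC16, GPR161, TRAK2 and ANKRD20A3. In the last 5 the long peaks of the 2 lines did not overlap. The 11 genes were 3.67% (1.84 to 6.47%) of the HL60 genes with a long peak, against 1.22% of all genes with one in HL60/MX2. They were 4.49% (2.26 to 7.89%) of the HL60/MX2 genes, against 1.49% of all genes with one in HL60. The genes were not matched for exon length. GPR161, a receptor of the cilium that restrains Hedgehog signalling, had 1054 bp (560.83) in HL60 and 545 bp (545.52) in HL60/MX2 at different places of the same 3'UTR. The HL60 peak was met over 281 bp by a shorter HL60/MX2 peak of 354 bp (1034.56). TRAK2, an adaptor of mitochondrial transport, had 806 bp (304.55) and 629 bp (80.77) in the 3'UTR of an exon of 4012 bp. ANKRD20A3 had 791 bp in the 3'UTR (1546.43) and 610 bp in the CDS (170.96).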

How the data were processed

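Polyadenylated RNA of 1 HL60 and 1 HL60/MX2 culture was decapped, fragmented, enriched with an m7G antibody and sequenced. Per the labels and the study's methods, the authors trimmed reads with Cutadapt 1.9.3, aligned them to hg19 with Hisat2 2.0.4 (STAR served for the input libraries), called peaks with MACS on each line and kept those over exons of protein-coding genes. The version and settings of MACS are not given in the sources used here. The deposited lists give for each peak its position, its strand and a score that the authors computed, whose scale is not given in the sources used here. The scores began at 50 and were used only within a list.

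Peaks of at least 500 bp (end minus start as listed) were taken, with starts then counted from 1. The build was checked by the length of chromosome 1 (249250621 bp). Genes were those of GENCODE release 44 on hg19, without the mitochondrial ones (20162). A peak went to the gene with the largest same-strand exon overlap. Its region was that of largest overlap on the longest coding transcript, where the 100 nt on either side of a start or stop codon formed separate classes. Repeated words were words of 12 nt found more than once in a peak. No count of reads was given, so the intervals rest on the number of peaks alone and leave out any spread between libraries. Medians carry 95% intervals from order statistics. Python 3.11.15, numpy 2.4.6, scipy 1.17.1, pysam 0.24.0 and matplotlib 3.10.9 were used, and the steps were tested on simulated data. The sequence of 1 peak is not reported here.

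Named were the 10 longest and 10 highest scoring peaks per line, the 3 on each side of the limit, genes with 2 or more long peaks or with long peaks in both lines, overlapping pairs, and up to 10 members per gene list. Members and lists were chosen with earlier results of these data known. The comparison with shorter peaks over exons of at least 500 bp, the composition measures and the share of bases were chosen after seeing the data. Alternatives were tried for the length limit, the score, the overlap, the strand, the transcript, the exon and the assignment.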

Additional observations from a re-analysis of the deposited data

How the results depend on the processing

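Of 91 alternative values for 17 results, 54 stayed within the interval of the result (for counts, within 1.5 times it) and 37 did not. A limit of 400, 600 or 1000 bp gave 552, 190 and 22 peaks in HL60 and 443, 150 and 8 in HL60/MX2, in 498, 168 and 20 genes and 414, 140 and 7 genes, with 31, 6 and 0 genes in both. Keeping scores at or above the list median left 187 and 158 peaks. At 1000 bp or more the shares were CDS 50% and 66.7%, 3'UTR 50% and 16.7%, and shared 18.2% and 0%, with median scores of 535 and 1588, exons of 4132 and 3381 bp and, in HL60/MX2, a GC content of 53.9%, all over at most 22 peaks. At 600 bp the HL60 exon median was 3883 bp. An overlap of 50% of both peaks left 2.40% and 3.44% shared, one of 100 bp left 9.61% in HL60, and partners at or above the median score of their list left 7.51% and 6.11%. With the coding transcript of largest overlap the CDS share was 23.2% and 39.7%, and the 3'UTR share of HL60 71.9%. The 3'UTR share was higher and the CDS share lower in HL60 than in HL60/MX2 in each of 6 settings, a difference not tested. These were the midpoint deciding the class, no codon classes, the transcript of largest overlap, and limits of 400, 600 and 1000 bp. Within HL60/MX2 the CDS share did not stay above the 3'UTR share. Both were 44.8% by the midpoint, and the CDS had 39.7% against 51.8% with the transcript of largest overlap and 41.2% against 44.2% at 400 bp. Within HL60 both were 50% at 1000 bp. No paired analysis was possible because each line has 1 library and no result comes from a test. The depth is unknown, since the lists hold no read counts.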

Other observations

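Long peaks over no protein-coding exon of their own strand numbered 24 in HL60 (7.21%, 4.67 to 10.5%) and 15 in HL60/MX2 (5.73%, 3.24 to 9.27%), against 3.97% and 3.87% of all shorter peaks. The highest score among them in HL60 was 3100 over 644 bp on chromosome 8, in the annotated pseudogene REXO1L11P. In HL60/MX2 the highest was 2935.64 over 971 bp on chromosome 5 (chr5:79945885-79946855), followed by 2807.18 over 1396 bp on chromosome 8. In HL60 others lay over the annotated long non-coding genes PLAC4 (855 bp, 399.99), ZNF295-AS1 (724 bp, 450.62), C3orf36 (697 bp, 131.66) and DUBR (586 bp, 163.54). In HL60/MX2 ARIH2OS (711 bp, 132.87) was such a gene. These peaks were chosen after their values were seen.

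By chromosome, the share of peaks that were long ran in HL60 from 1.27% (0.263 to 3.67%) on chromosome X to 5.88% (3.88 to 8.50%) on chromosome 4, leaving out chromosome Y with 5 peaks. In HL60/MX2 it ran from 1.18% (0.0298 to 6.38%) on chromosome 21 to 5.69% (3.35 to 8.95%) on chromosome 15. On chromosome 4 the HL60/MX2 share was 2.49% (1.20 to 4.53%).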
